A study of Caenorhabditis elegans with 2 samples.

Results

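The genes described here are ges-1 and pho-1, which encode a carboxylesterase and an acid phosphatase of the gut and serve as classic markers of the differentiated intestine of Caenorhabditis elegans. The 2 genes were chosen by name from the 19985 protein-coding genes of the annotation and every listed ELT-2 summit within 10 kb of either gene body was taken. The peaks come from ChIP-seq of ELT-2 in late embryos of strain OP56, genotype unc-119(ed3) III; wgIs56, collected 4 hours after synchronization by egg bleaching. The animals were hermaphrodites carrying an integrated transgene that adds GFP and FLAG to the C-terminus of ELT-2. The protein was precipitated from chromatin of whole animals with an antibody to GFP according to the sample description, while the antibody field of the labels reads elt-2. The 2 libraries are biological replicates 1 and 2 of a single group, and nothing further is said of how separate their cultures were. Both carry the unc-119 mutation and the transgene, and no comparison between groups was made. Peak lists of control libraries were not analysed here.

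ELT-2, a transcription factor of the GATA family, is made in the intestine and acts there from soon after the endoderm is specified until adulthood. It binds a short word, TGATAA in its core form, that occurs near many genes of digestion, metabolism and defence. ges-1 is switched on early in the gut lineage, and its esterase activity can be stained in embryos. A tandem pair of GATA sites in the ges-1 control region was the probe with which ELT-2 was first isolated. The product of pho-1 is an acid phosphatase of the gut lumen, made in all but the most anterior cells of the intestine.

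The intestinal genes differed in where the thresholded ELT-2 peaks near them lay. The single thresholded peak within 10 kb of ges-1 stood upstream of the gene, nearer to its 5′ end than to any other, over a pair of GATA words. The single thresholded peak within 10 kb of pho-1 stood downstream, on the far side of 2 other protein-coding genes. Neither gene had a pooled entry from 1000 bp upstream to 200 bp downstream of its 5′ end. The 300 bp before pho-1 held 3 copies of TGATAA and only a weak entry of replicate 2. These 3 windows are printed because the results below turn on them. They were read from the RefSeq genome of the WBcel235 assembly, which is ce11, and are given 5′ to 3′ on the minus strand, the strand of both genes. Capitals mark every GATA word on either strand. The 4 words counted were TGATAA itself, the form AGATAA with another first base, the form TGATAG with another last base, and the form AGATAG with both changes. A word on the opposite strand appears as its reverse complement, such as TTATCA.
ges-1 summit, chrV:1433198-1433356: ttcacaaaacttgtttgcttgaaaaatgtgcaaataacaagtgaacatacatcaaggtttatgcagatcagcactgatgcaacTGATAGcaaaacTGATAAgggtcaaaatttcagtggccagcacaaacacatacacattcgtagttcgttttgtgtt
pho-1 upstream, chrII:5235847-5236146: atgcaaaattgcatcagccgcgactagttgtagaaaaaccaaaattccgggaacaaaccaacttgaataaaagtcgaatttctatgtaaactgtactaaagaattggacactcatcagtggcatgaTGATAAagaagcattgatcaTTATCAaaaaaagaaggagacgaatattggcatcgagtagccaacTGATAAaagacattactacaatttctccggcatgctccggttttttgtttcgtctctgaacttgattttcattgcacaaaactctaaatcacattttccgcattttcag
pho-1 distal summit, chrII:5227995-5228095: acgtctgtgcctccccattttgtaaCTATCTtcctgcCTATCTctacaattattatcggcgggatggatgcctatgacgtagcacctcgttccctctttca
The ges-1 window runs from 50 bp downstream of the pooled summit to 50 bp upstream of the replicate 1 summit. The pho-1 upstream window ends at the last base before the annotated 5′ end of the gene. The distal window covers 50 bp on either side of the pooled summit. Its label follows the 10 kb rule and does not assign the summit to pho-1.

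The lists differ in what they hold. The thresholded list has 4098 peaks called on the pooled replicates that passed the irreproducible discovery rate procedure, and their signal, the authors' own value on a scale that no source used here gives, ran from 67.6 to 1740. The pooled list has 30000 entries down to a signal of 16.1, that of replicate 1 has 25770 down to 11.9501, and that of replicate 2 has 25986 down to 10.4. These lists are described as peaks together with background, so a low entry in them is a listed position and not a call. The numbers of reads are not known from the lists, and signals are therefore compared within a list, by rank. Where a log2 ratio of replicate signals is given, it is set beside the ratios of all thresholded peaks matched in both replicates.

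ges-1 (WBGene00001578) lies on chromosome V from 1427653 to 1432137 on the minus strand, with 8 exons and 1 annotated transcript whose 5′ end is the first base of the start codon. Its thresholded peak covered 1433020 to 1433475, with the summit at 1433248, 1111 bp upstream of that 5′ end and in intergenic sequence. The pooled signal was 159, which ranked 1017 among the 4098 thresholded peaks and exceeded 75.2% of them. In replicate 1 the matching entry had a signal of 84.7 and rank 1046. In replicate 2 it had a signal of 82.1 and rank 882. Both replicates therefore held the peak well above the rank of the last thresholded peak. That rank corresponds to a signal of 38.2 in replicate 1 and 33.6 in replicate 2. Replicate agreement may already have entered the thresholding, so it is not taken as separate support for a peak of that list.

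The replicates placed the ges-1 summit at slightly different bases. The summit of replicate 2 coincided with the pooled one, and that of replicate 1 lay at 1433306, 58 bp farther from the gene. Both replicates had a match for 4089 of the thresholded peaks, at which the median distance between replicate summits was 26 bp, and at 75.0% of these peaks it was smaller than 58 bp. The log2 ratio of the replicate 1 to the replicate 2 signal was 0.05 at ges-1, with a median of 0.19 and an SD of 0.47 over the same 4089 peaks. The log2 ratio at ges-1 thus lay within 1 SD of the median, while the replicate summits lay farther apart than the median. This SD is a spread over different peaks and does not measure replicate variation at ges-1. The −log10 q-value of 3.58 was the highest of the thresholded list, a value shared by 1891 peaks.

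**Figure D1:**
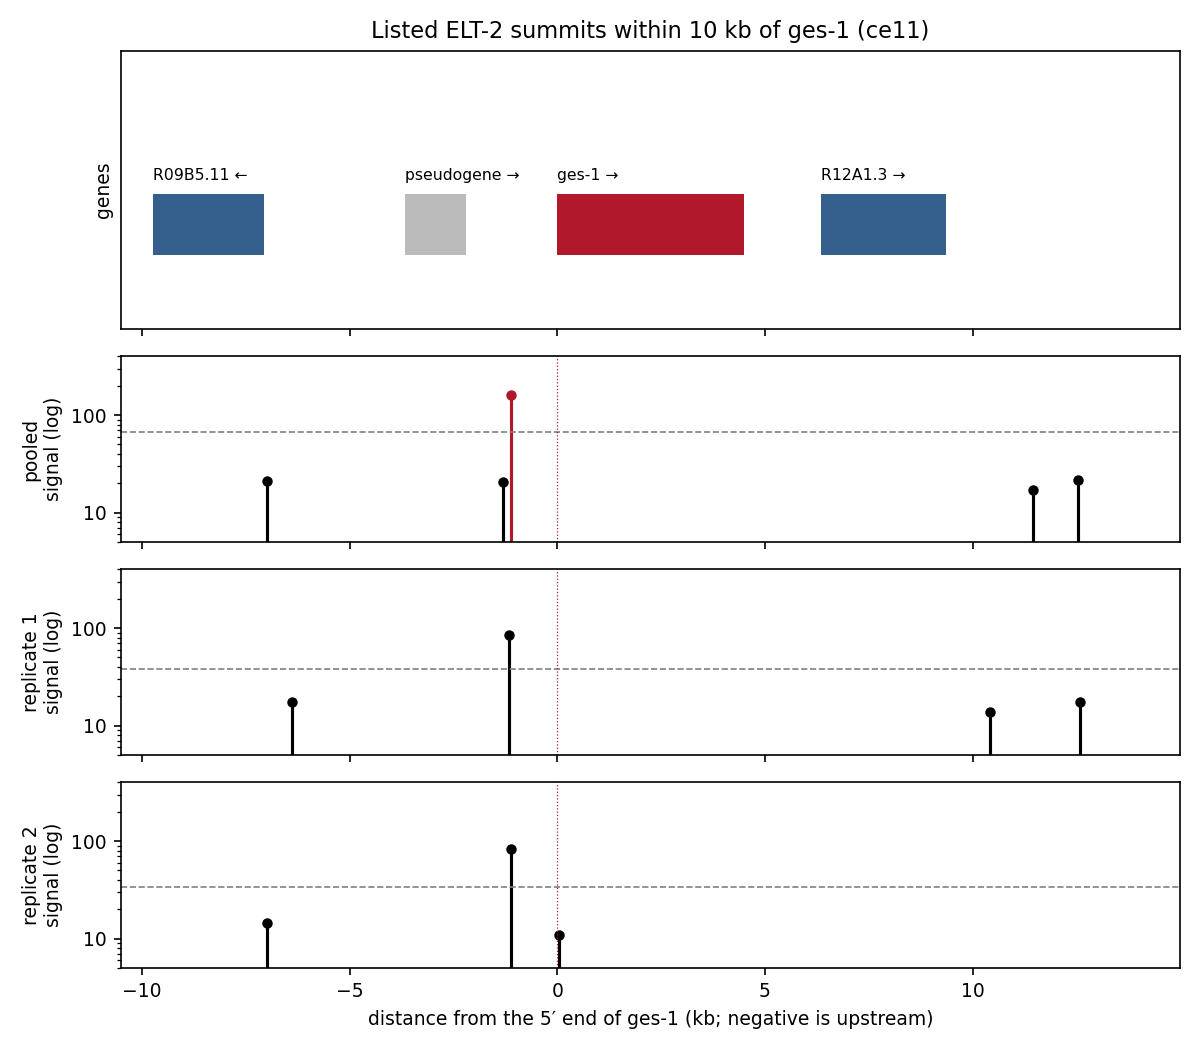
Genes (top) and listed ELT-2 summits within 10 kb of ges-1, by distance from its 5′ end in kb, with arrows giving strand relative to ges-1. Stems show the authors' signal on a log axis in the pooled list and in each replicate, red marks the thresholded peak, and the dashed line is the signal at rank 4098 of that list. The peak 1111 bp upstream exceeds the line in all 3 lists, and every other entry lies under it. In the pooled list this holds by construction, since the thresholded peaks are its 4098 strongest entries.

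No other annotated gene started close to the ges-1 summit. The next gene upstream is a pseudogene (WBGene00019976), read in the same direction as ges-1, across a gap of 2201 bp. The next protein-coding gene is R09B5.11, on the other strand, whose 5′ end lies 7068 bp upstream of that of ges-1. Of all annotated 5′ ends, that of ges-1 was the nearest to the summit. The other neighbour is R12A1.3, whose 5′ end lies 6343 bp downstream of the ges-1 5′ end.

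The remaining entries around ges-1 were weak. The pooled list held 5 summits within 10 kb of the gene, 1 of them the thresholded peak, and the other 4 had signals from 17.2 to 21.5, below the pooled median of 26.5. An entry at 1433450, 1313 bp upstream of ges-1, overlapped the main entries of both replicates and had none of its own in either. The entry at 1439128 lay 77 bp upstream of R09B5.11, carried TGATAA and was matched in replicate 2, with a signal of 14.6, and not in replicate 1. In the other direction, beyond R12A1.3, the pooled entry at 1419602 was matched in replicate 1, with a signal of 17.4, and the entry at 1420694 in neither replicate. At the ges-1 5′ end itself, replicate 2 had an entry 31 bp downstream, in coding exon 1, with a signal of 10.9 and rank 24386 of 25986. Replicate 1 alone listed 1421720 (signal 13.9), downstream of R12A1.3, and 1438520 (signal 17.3), 685 bp upstream of R09B5.11. Just outside the 10 kb limit a thresholded summit lay 10925 bp upstream of ges-1, with a signal of 76.3.

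Counts within 10 kb do not set ges-1 apart. A thresholded summit lay within 10 kb of 11285 protein-coding genes (56.5%), and the median count was 1, the count at ges-1 and at pho-1. A pooled entry lay within 10 kb of 89.6% of them, with a median of 6 entries against 5 at ges-1. In the promoter window, from 1000 bp upstream to 200 bp downstream of a 5′ end, 13.7% of protein-coding genes had a thresholded summit and ges-1 had none. A further 4.03% had one only in the next 1000 bp upstream, and ges-1 was among these 805 genes. The promoter window of ges-1 also held no pooled entry, which 42% of protein-coding genes had. It held no replicate 1 entry either, only the weak replicate 2 entry at the 5′ end. An entry in replicate 2 with none in replicate 1 was the state of 9.74% of protein-coding genes, pho-1 among them. The nearest thresholded summit was closer to a 5′ end at 15.6% of protein-coding genes than at ges-1, and the median distance was 8965 bp.

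The ges-1 summit lay beside 2 GATA words. The nearest base of TGATAA, which was followed by G, lay 8 bp from the pooled summit on the upstream side, and that of TGATAG lay 20 bp from it, so that the words were separated by 6 bp and read in the direction of the gene, 1119 to 1136 bp before its 5′ end. The pair with its flanking bases reads acTGATAGcaaaacTGATAAgg at chrV:1433254-1433275. TGATAA on either strand was found within 50 bp of 43.5% of the 4097 thresholded summits with full windows, and in 9.57% of windows centred 500 bp to the left. Within 25 bp of the summit it was found at 27.9%, and within 100 bp at 54.1%. TGATAAG, which contains TGATAA, was found at 26.1% of the summits and TGATAG at 7.96%. At least 2 of the 4 words lay within 50 bp of 31.9% of the summits and in 2.66% of the flanking windows. Word pairs on 1 strand with starts 12 bp apart, as at ges-1, were found at 46 summits (1.12%) and in 3 flanking windows (0.0732%). Spacings of 7 and of 13 bp were found at the same number of summits, and a spacing of 5 bp at 93.

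The peak marked 1 of several places with GATA words before ges-1. The 2201 bp between ges-1 and the pseudogene held 7 of the words, 3 of them TGATAA. Closest to the 5′ end, 11 bp before it, stood AGATAA. The word AGATAG stood 468 and 572 bp before it, and the outer copies of TGATAA stood 1692 and 1757 bp before it. None of these 5 words lay within 50 bp of a pooled summit, though the AGATAA lay within 50 bp of the weak replicate 2 entry at the 5′ end. The 300 bp directly upstream of ges-1 held that word alone, and TGATAA was not found there.

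pho-1 (WBGene00004020) lies on chromosome II from 5233156 to 5235846 on the minus strand, with 11 exons and 1 annotated transcript that has 14 bp of 5′ UTR. The thresholded peak within 10 kb of pho-1 covered 5227952 to 5228094, a width of 143 bp against a median of 456 bp, with the summit at 5228045. The pooled signal was 249, ranking 369 among the thresholded peaks and exceeding 91.0% of them. In replicate 1 the matching entry had a signal of 143, rank 321 and a summit at 5228085. In replicate 2 it had a signal of 106, rank 482 and a summit at 5228045. The log2 ratio of replicate 1 to replicate 2 was 0.43, within 1 SD (0.47) of the median of 0.19, and 62.9% of the matched peaks had replicate summits closer together than the 40 bp found here.

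**Figure D2:**
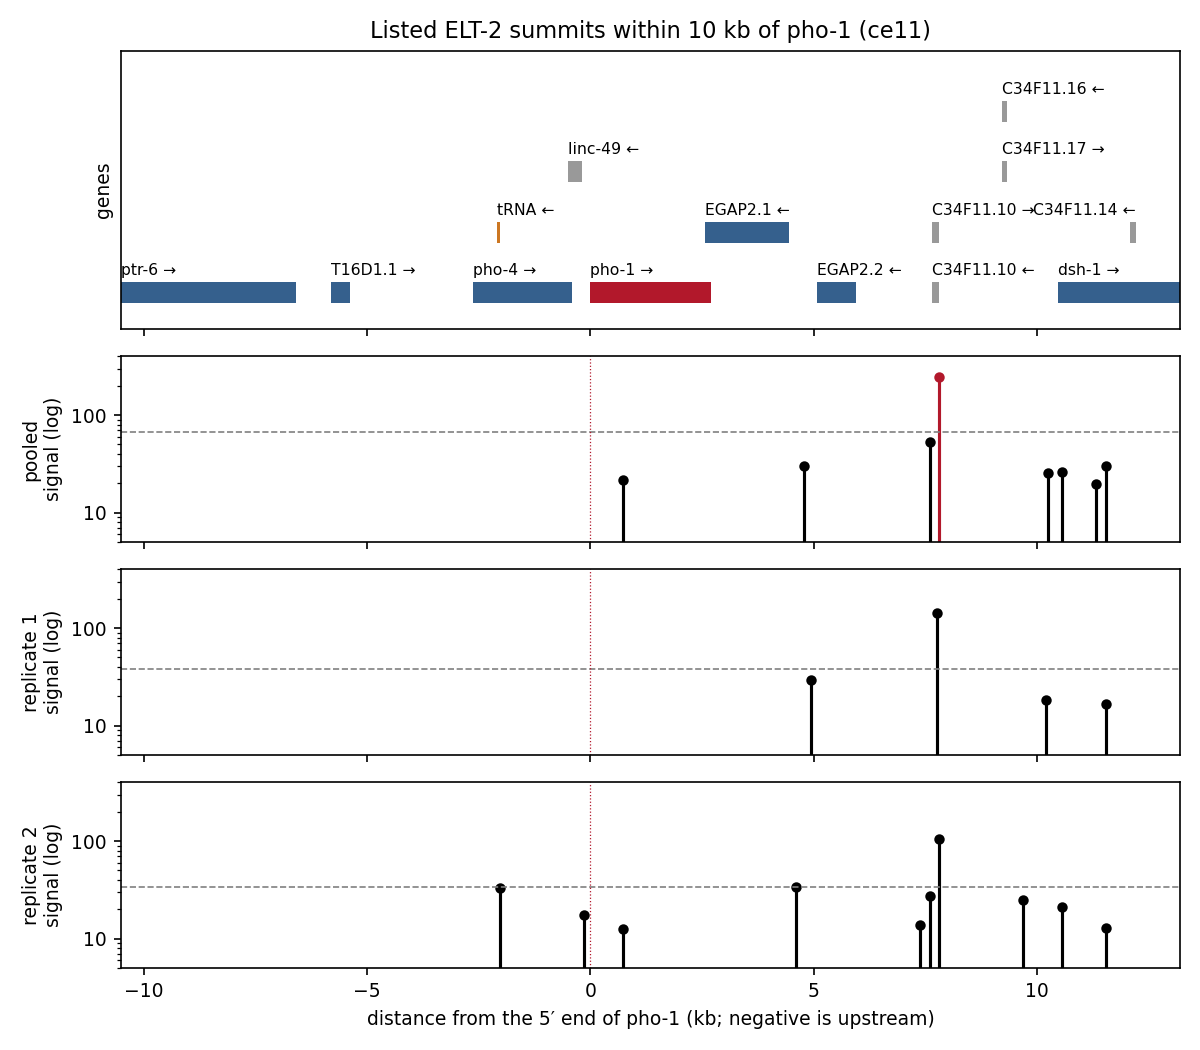
Genes (top) and listed ELT-2 summits within 10 kb of pho-1, drawn as for ges-1. The thresholded peak (red) lies 7801 bp downstream of the pho-1 5′ end in the pooled list, and upstream of the gene entries are listed in replicate 2 alone, with signals of 17.6 and 33.0.

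Several genes lay closer to that peak than pho-1 did. Its summit was 7801 bp downstream of the pho-1 5′ end and 5111 bp beyond the 3′ end of the gene. The protein-coding genes EGAP2.1, which overlaps the 3′ end of pho-1, and EGAP2.2 lie in between, both on the plus strand. The nearest protein-coding 5′ end was that of EGAP2.2, 1851 bp away, with the summit on its upstream side, and the summit was 2661 bp upstream of the outermost 5′ end of dsh-1, a gene of the Dishevelled family of Wnt signalling proteins. Nearest of all annotated 5′ ends, at 8 bp, was that of the non-coding RNA gene C34F11.10, a name carried by 2 genes annotated over the same 5228053 to 5228193 on opposite strands. The summit of replicate 1 fell inside these genes. By the same measure used for ges-1, 45.9% of protein-coding genes had a thresholded summit closer to a 5′ end than the 7801 bp of pho-1.

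**Figure D3:**
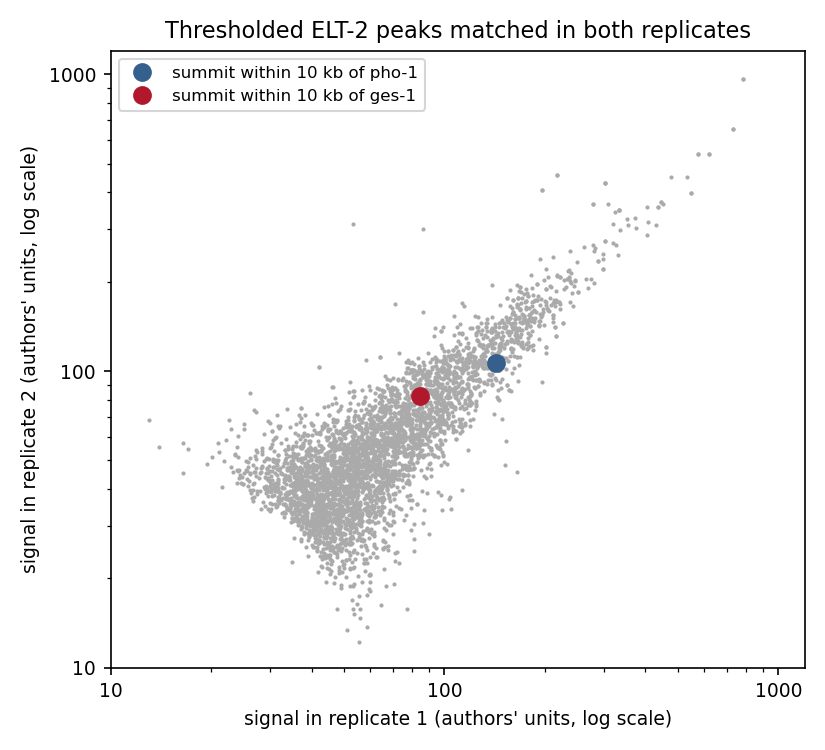
Signal in replicate 1 against replicate 2, both on log axes in the authors' units, for the 4089 thresholded peaks matched in both replicates. The peak near ges-1 (84.7 and 82.1) and that near pho-1 (143 and 106) lie inside the cloud of all peaks. Replicate agreement may already have entered the thresholding of the peaks shown.

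The distal summit within 10 kb of pho-1 carried no TGATAA within 50 bp, nor within 100 bp. It had 2 copies of AGATAG, on the strand opposite to pho-1, with their nearest bases 8 and 20 bp from the summit and 6 bp between them. AGATAG was found at 6.66% of thresholded summits and in 3.12% of flanking windows, and at least 2 copies of it at 20 summits (0.488%). The spacing equals that of the ges-1 pair, a match noticed only after both windows had been read. The words differ in their letters, and their orientation relative to the member gene differs too. At both peaks the distances of 8 and 20 bp hold for the pooled summit, which is also that of replicate 2. The replicate 1 summits lay on the other side of the words.

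**Figure D4:**
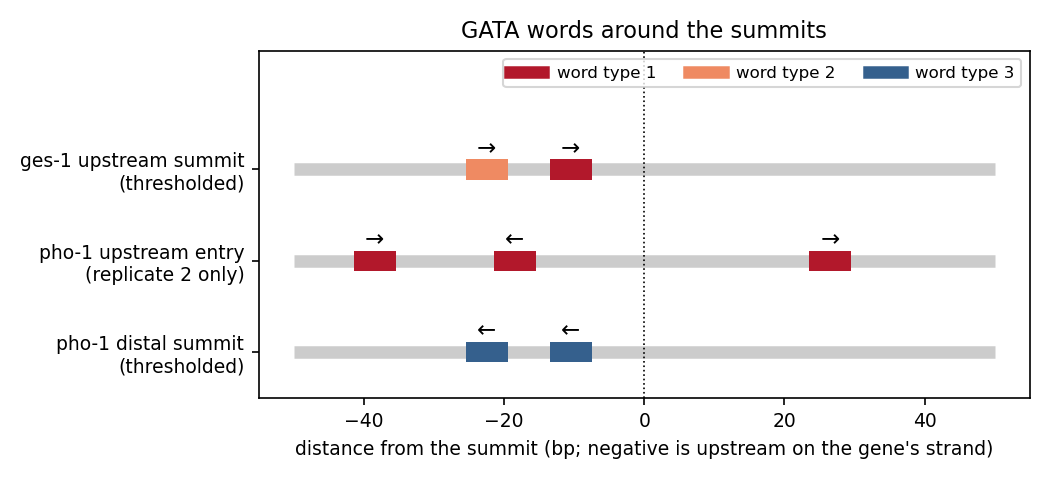
Positions of GATA words within 50 bp of 3 summits, in bp from the summit with negative values upstream on the gene's strand. Red is TGATAA, orange TGATAG and blue AGATAG, and arrows to the right follow the direction of the gene. Words lie 8 and 20 bp from both thresholded summits, and 3 copies of TGATAA surround the replicate 2 entry before pho-1. The thresholded summits are at the bases of the replicate 2 summits. Those of replicate 1 lie 58 bp (ges-1) and 40 bp (pho-1) away, on the other side of the words.

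Directly upstream of pho-1, GATA words were present without a thresholded or pooled summit. Only 410 bp separate pho-1 from pho-4, the next protein-coding gene, which is read in the same direction and belongs to the same acid phosphatase family. The long non-coding RNA gene linc-49 starts 183 bp before pho-1 on the other strand and overlaps the 3′ end of pho-4. TGATAA stood 104, 149 and 169 bp before the 5′ end, the middle copy on the opposite strand, with 39 and 14 bp between neighbouring copies. In the pooled list no entry lay in the promoter window of pho-1, whereas 42% of protein-coding genes had one. In replicate 1 none lay there either (40.9% of genes). In replicate 2 (41.6% of genes) there was 1, with its summit at 5235979, 133 bp upstream of pho-1, amid the 3 copies, which lay 16 to 36 bp from it. The 5′ end of linc-49 was nearer to this summit, at 50 bp, than that of pho-1. Its signal of 17.6 was above the replicate 2 median of 16.0, and its rank of 11031 of 25986 lay far below rank 4098 of that list. An entry in replicate 2 with none in replicate 1 was the state of 9.74% of protein-coding promoters. The promoter of ges-1 was in this state too, and it likewise held no pooled entry. The pooled list ends at a signal of 16.1, so weaker enrichment before pho-1 would not be listed in it.

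Promoters with as many copies of TGATAA as pho-1 were uncommon. At least 1 copy lay in the 300 bp upstream of 30.7% of protein-coding genes, and at least 3 copies upstream of 300 genes (1.5%). Of these 300 genes, 134 (44.7%) had a thresholded summit in the promoter window, against 23.2% of genes with 2 copies, 14.0% with 1 and 12.01% with none. pho-1 was among the 166 genes without one. It was also among the 94 of the 300 with no pooled entry, 19 of which had an entry in replicate 2. These shares describe all genes, and neighbouring genes can share a window. They were looked at after the pho-1 sequence had been read.

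**Figure D5:**
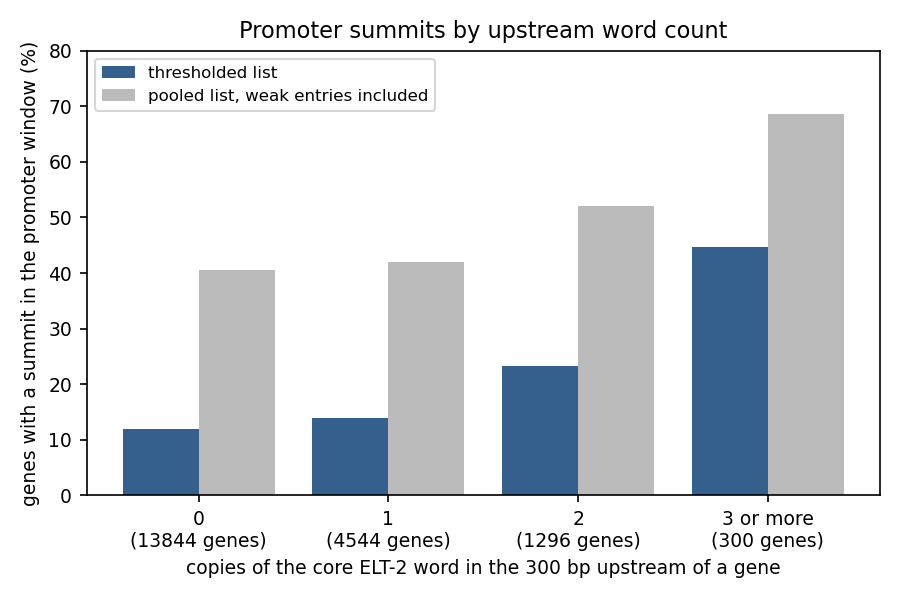
Percentage of protein-coding genes with a summit in the promoter window, by the number of TGATAA copies in the 300 bp upstream. Blue bars give the thresholded list and grey bars the pooled list, and bars start at 0. The thresholded share is 12.01% with no copy and 44.7% with 3 or more, the class that holds pho-1.

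None of the other entries near pho-1 was in the thresholded list, which had no further summit within 20 kb of the gene. The pooled list held 8 within 10 kb of the gene, against a median of 6 over protein-coding genes. A shoulder of the distal peak, with its summit at 5228249 and a signal of 53.3, ranked 5506 of 30000. The entry at 5231067 lay 344 bp upstream of EGAP2.1, with a signal of 30.3. Its matches were at 5230911 in replicate 1 (signal 29.5) and at 5231253 in replicate 2 (signal 33.8, rank 4081). A further 4 entries at dsh-1 had signals from 19.7 to 30.3, and the weakest of them, at 5224519, had TGATAA within 50 bp. Inside pho-1 the pooled list had 1 entry, in coding exon 4, with a signal of 21.5, a match in replicate 2 (signal 12.6), none in replicate 1 and no GATA word within 50 bp.

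Upstream of pho-1 both entries belonged to replicate 2 alone. Besides the entry at 133 bp, one lay at 5237874 in an intron of pho-4 and inside a tRNA gene (WBGene00023141), 2028 bp upstream of pho-1, with a signal of 33.0 and rank 4231. It had no GATA word within 50 bp. Neither was listed in the pool or in replicate 1. Within 10 kb of pho-1 replicate 2 listed 10 entries and replicate 1 listed 4, whereas at ges-1 they listed 3 and 4. Around the distal peak replicate 2 also had 5228245 (signal 27.1), 5228458 (signal 13.8) and, 784 bp upstream of dsh-1, 5226168 (signal 24.9). The entries at 5228458 and 5226168 each had TGATAA within 50 bp. No thresholded summit lay in the promoter window of pho-4, whose nearest was the same distal peak, 10421 bp downstream of its 5′ end.

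Related genes were looked at by family symbol. Of the 12 pho genes, 2 (16.7%) had a thresholded summit in the promoter window, against 13.7% of all protein-coding genes, and both summits had TGATAA. That of pho-9 lay 142 bp upstream with a signal of 108, and pho-9 also had 3 copies of TGATAA in its upstream 300 bp. That of pho-11 lay 254 bp upstream with a signal of 75.4. The gene pho-10 had 3 copies, as pho-1 did, and no entry of any of the lists in its promoter window. Within 10 kb, 9 of the 12 genes (75%) had a thresholded summit, against 56.5% of all genes. pho-1 and pho-4 share the distal peak, so the genes are not separate observations.

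The carboxylesterase family is larger. Of its 33 genes, those named cest together with ges-1, 8 (24.2%) had a thresholded summit in the promoter window, beside 13.7% of all protein-coding genes, and 25 (75.8%) had one within 10 kb, beside 56.5%. By signal the first 6 were cest-5.1 (160), cest-5.2 (153), cest-10 (147), cest-25 (116), cest-2.2 (115.1) and cest-6 (105). Of the 8 genes, 6 had TGATAA within 50 bp of the summit, beside 43.5% of all thresholded summits, and cest-5.1 and cest-6 did not. The ges-1 signal of 159 thus stood near the top of the range of 76.3 to 160 of those 8 promoter summits. The promoter summits of the 6 named genes lay 8 to 240 bp upstream. The ges-1 summit, 1111 bp upstream, lay outside the promoter window, so its greater distance follows from the window and is no result. Genes of the family lie in tandem groups on several chromosomes, so neighbours can share summits.

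The genes whose upstream peak was most like that of ges-1 in strength were unrelated by name. Among 491 protein-coding genes whose nearest thresholded summit lay 500 to 2000 bp upstream and carried TGATAA, the replicate signals closest to those of ges-1 (Euclidean distance of log2 signals over the 2 replicates) were at cdo-1, str-116 and F21F8.5. The peak nearest to cdo-1, a cysteine dioxygenase gene, lay 1011 bp upstream, with signals of 84.6 and 81.7 and a distance of 0.00721. The one nearest to str-116, of a family of chemoreceptor-like genes, lay 1286 bp upstream, with signals of 85.3 and 84.3 and a distance of 0.0390. The one nearest to F21F8.5 lay 1121 bp upstream, with signals of 82.3 and 80.9 and a distance of 0.0467. Whether another 5′ end lay nearer to these summits is not given here, so the peaks are not assigned to these genes.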

How the data were processed

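The measurements are ChIP-seq peak lists of GFP-tagged ELT-2 from 2 replicate libraries of late embryos. Per the labels' file listing, the authors deposited ce11 lists per replicate, for the pool, and thresholded by the irreproducible discovery rate procedure. Each deposited entry has the authors' signal and a −log10 q-value. For the aligner, the peak caller, the threshold and the scale of the signal the entry is: not given in the sources used here. The deposited ce10 lists were not used, since coordinates were not converted.

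Summits were placed, 1-based, on the Ensembl release 115 annotation of WBcel235 with python 3.11.15. All peaks of the 4 lists lay within the chromosome lengths of the RefSeq genome. Ranks run from the highest signal, and entries matched when they overlapped by at least 1 bp. The word search covered both strands. Assignment, matching and search were checked on simulated data. No test was made, since a single group allows no comparison between groups. Members and gene lists were chosen with earlier results of these data known. Named genes were the members, genes next to their summits, up to 6 of each family with the strongest promoter summit, and the 3 most like ges-1. pho-4, pho-10 and the spacing and word-count comparisons were added after values were seen.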

Additional observations from a re-analysis of the deposited data

How the results depend on the processing

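Leaving out a replicate means taking the other one's list, and for the thresholded counts its 4098 strongest entries. At ges-1 the count of thresholded summits stayed at 1 with a limit of 5 kb, with the 2049 strongest peaks, and without either replicate (1 to 1). With a limit of 20 kb it was 2. At pho-1 it was 0 with 5 kb and 1 with 20 kb, and it ran from 1 to 2 when a replicate was left out. Without replicate 1 the second summit was the one near EGAP2.1, at rank 4081. Pooled summits numbered 2 with 5 kb and 9 with 20 kb at ges-1, and 3 with 5 kb and 11 with 20 kb at pho-1. When a replicate was left out, they ran from 3 to 4 at ges-1 and from 4 to 10 at pho-1. The 2049 strongest peaks lowered the share of genes with a summit within 10 kb to 36.4%, the pho count to 0 and the carboxylesterase count to 5. With all thresholded peaks that share was 39.7% at a limit of 5 kb and 75.7% at 20 kb. With a promoter window from 2000 bp upstream to 500 bp downstream the carboxylesterase count was 10 and the pho count 2. The ges-1 summit, 1111 bp upstream, falls inside that wider window. With summits required to lie within 100 bp, 1 pooled entry at ges-1 and 2 at pho-1 had a match in both replicates, against 2 and 7 by overlap. Counting any of the 4 GATA words, added after the data were seen, gave 2 at each thresholded summit, against 1 and 0 for TGATAA. The ce10 alternative was not run, since coordinates were not converted. No paired analysis was possible because there is a single group. The depth of the libraries is unknown, so an absent entry says only that none was listed.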
